A study of Mus musculus with 45 samples.

Results

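Enzymes that reduce steroids or oxidise and reduce their hydroxyl groups were measured in kidney, with liver and brain beside it, on 45 Affymetrix mouse gene arrays. The 9 genes are the 5-alpha-reductases Srd5a1, Srd5a2 and Srd5a3, the aldo-keto reductases Akr1c14, Akr1c18 and Akr1c21, and the dehydrogenases Hsd11b1, Hsd11b2 and Hsd17b11. They were taken by name from a table of 22080 genes, and all 9 were present. Srd5a2 and Akr1c18 had been chosen by their measured values, since both were seen to change between diets in kidney. Their kidney values are therefore given as a description, with no test. The other 7 genes were chosen by name as related enzymes.

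Male C57BL/6 mice, 7 weeks old and 8 to a group, received 1 of 5 diets and were sacrificed on day 43. Control mice ate the standard AIN-93 diet, and HCD mice ate it with 0.5% cholesterol. HCD+Sim mice received the cholesterol diet with simvastatin, an inhibitor of cholesterol synthesis, at 0.03% by weight. HCD+Gl-1 and HCD+Gl-2 mice received the cholesterol diet with 1.0% of an extract of the mushroom Ganoderma lucidum (Gl), and for Gl-2 the mushroom had grown on substrate with 10 mM acetylsalicylic acid. Each group has 3 arrays, named here as pools A, B and C. By the methods, A and B each combine RNA from 4 different mice, and C is a mixture of A with B. Only 2 of the 3 arrays are thus separate samples of mice, and p-values measure the spread between arrays of this kind. All values are the authors' log2 expression values, and a difference of 1 on that scale is a doubling.

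Steroid 5-alpha-reductases remove a double bond from the ring system of steroids, and the type encoded by Srd5a2 is known for turning testosterone into dihydrotestosterone. Hydroxysteroid dehydrogenases then switch single positions of the steroid between a ketone and a hydroxyl group, which activates or inactivates the hormone. In kidney the best known of them is the enzyme of Hsd11b2, which inactivates corticosterone and so keeps it from the mineralocorticoid receptor.

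The 15 kidney arrays had medians between 6.83 and 6.88, and a gene's SD over the 3 arrays of a group had a median of 0.0818 there. A line of free text in the descriptions of the kidney and liver samples names brain as the tissue, while titles and tissue fields name kidney and liver. Tissue markers followed the titles. Of 22 markers of kidney segments 21 were called higher in kidney than in liver on the Control diet. Against brain 19 of the 22 were called higher in kidney and 1 was called lower. All 5 liver markers were called lower in kidney than in liver. All 5 brain markers were called lower in kidney than in brain. A single array stood apart. Pool C of brain Control correlated with pool B of its group at 0.985 and with pool A at 0.991, while the 42 pairs of arrays within the other groups correlated at 0.989 to 0.997 across genes.

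The promoters of Srd5a2 and Akr1c18 are shown because these 2 genes differed between diets in opposite directions in kidney. RefSeq's table for GRCm38.p6 holds a promoter for 8 of the 9 genes, and the 250 bases before the start are printed, 5′ to 3′ on the gene's strand. The Srd5a2 window is chr17:74047861-74048110 on the minus strand and the Akr1c18 window is chr13:4150647-4150896, also on the minus strand. Capitals mark GGGCTATAAT, the longest run of letters that both windows share on the gene's strand.
Srd5a2: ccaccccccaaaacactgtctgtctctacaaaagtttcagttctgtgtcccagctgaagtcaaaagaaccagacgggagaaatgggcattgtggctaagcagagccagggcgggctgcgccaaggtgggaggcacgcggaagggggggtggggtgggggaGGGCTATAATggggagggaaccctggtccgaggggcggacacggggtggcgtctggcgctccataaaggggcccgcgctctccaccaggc
Akr1c18: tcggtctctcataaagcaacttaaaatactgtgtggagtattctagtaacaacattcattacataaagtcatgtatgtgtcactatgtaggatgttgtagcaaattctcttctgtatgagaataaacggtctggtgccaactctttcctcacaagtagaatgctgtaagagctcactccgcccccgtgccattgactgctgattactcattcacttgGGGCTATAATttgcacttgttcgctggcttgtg
The run of 10 letters begins 90 bases before the start of Srd5a2 and 33 bases before that of Akr1c18, and 0.0457% of 32851 promoter windows hold it on either strand. It was looked for after the values were known, and a shared run is a description of letters. Bases G and C make up 63.2% of the Srd5a2 window and 41.6% of the Akr1c18 window, against a median of 52.4% over all windows. Neither window holds AGAACA (the core of steroid receptor elements), TCACNCCAC (the sterol response element) or TATAAA (the TATA box) on either strand. Of all windows 16.1% hold the first, 1.05% the second and 12.4% the third.

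Srd5a2 lay higher in kidney with cholesterol alone or with simvastatin than in the other diet groups. On the Control diet pools A, B and C gave log2 levels of 9.27, 9.12 and 9.52. On HCD they gave 10.03, 10.09 and 10.10. With simvastatin the values were 10.14, 10.23 and 10.09. The HCD and HCD+Sim arrays thus overlapped each other, and each lay above every Control array. With Gl-1 the 3 values were 9.25, 9.33 and 9.56. With Gl-2 they were 9.20, 9.41 and 9.04. Both extract groups overlapped Control and lay wholly below HCD. Of all genes 13.2% had no overlap of arrays in HCD against Control. The shares against HCD were 13.8% with Gl-1, 20.4% with Gl-2 and 16.7% with simvastatin.

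The HCD mean of Srd5a2 in kidney exceeded the Control mean by 0.77 on the log2 scale (SE 0.11, n = 3 arrays each), a 1.71-fold difference. With Gl-1 the mean was lower than on HCD by 0.69 and with Gl-2 by 0.86, each with an SE of 0.11. HCD+Sim differed from HCD by 0.08, less than 1 SE. Against Control the differences were 0.08 for Gl-1, -0.08 for Gl-2 and 0.85 for HCD+Sim. These comparisons share the HCD or the Control arrays. In the order HCD+Sim, HCD, Gl-1, Control, Gl-2 the only gap between neighbours lay between HCD and Gl-1.

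**Figure D1:**
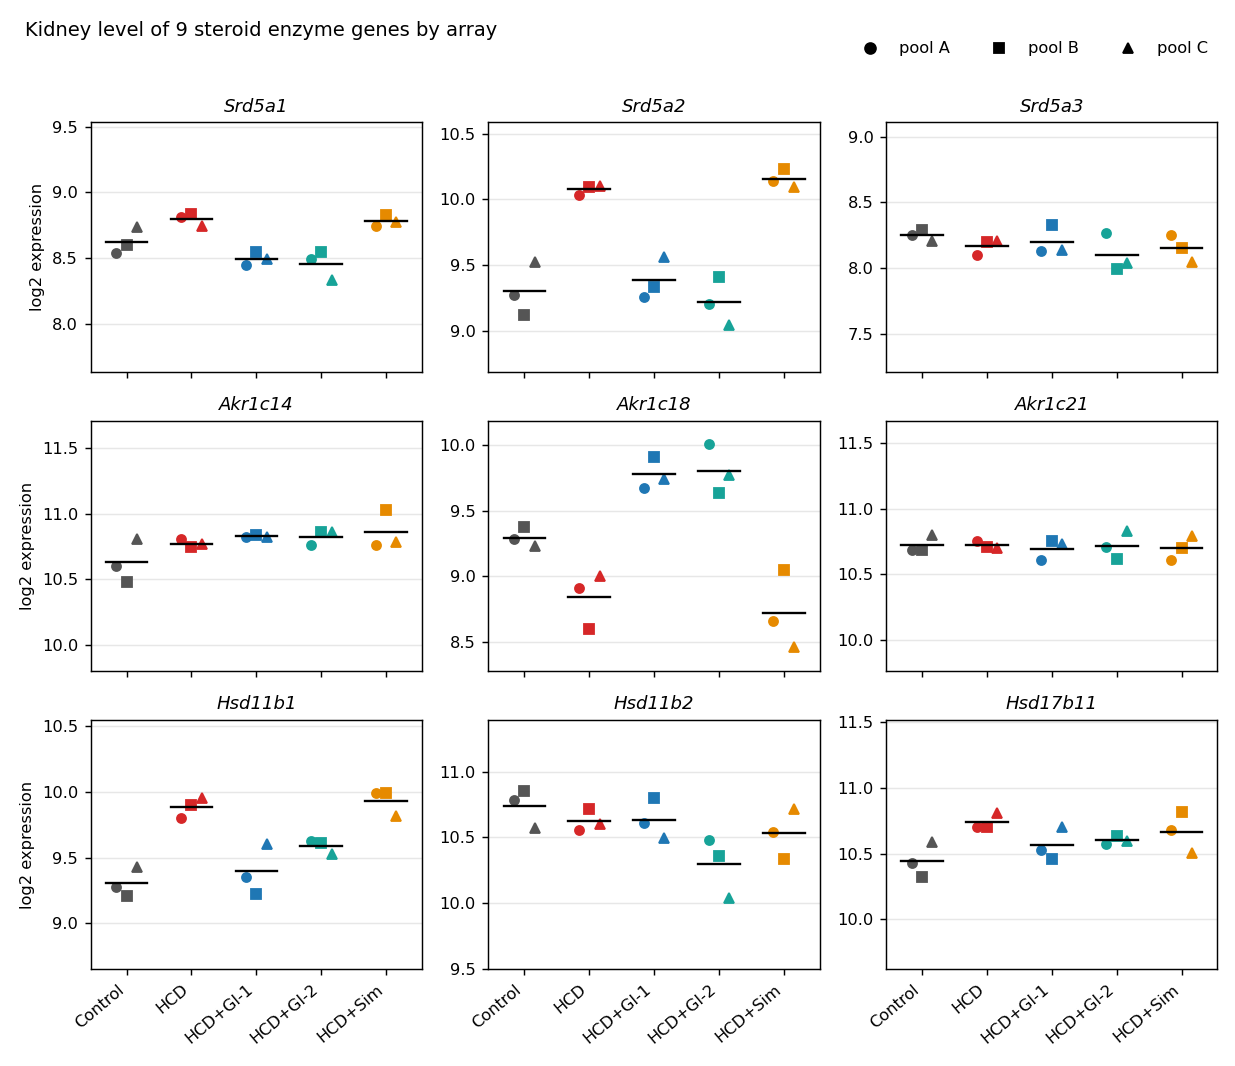
Log2 expression (vertical axis, each panel spanning 1.9 units) of the 9 genes on the 15 kidney arrays by diet, with a symbol for each pool and a bar at the mean of 3 arrays. Srd5a2 ran from 9.04 to 10.23 and Akr1c18 from 8.46 to 10.00, with HCD and HCD+Sim highest for Srd5a2 and lowest for Akr1c18, while the 5 diet means of Akr1c21 spanned 0.028.

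Srd5a1, the type of 5-alpha-reductase that is abundant in liver, had smaller kidney differences. Its kidney values were 8.54, 8.60 and 8.74 on Control and 8.81, 8.84 and 8.74 on HCD. With simvastatin they were 8.75, 8.83 and 8.78. With Gl-1 they were 8.44, 8.55 and 8.49, and with Gl-2 8.49, 8.55 and 8.33. Every array of both extract groups lay below every HCD array, where 13.8% of all genes did not overlap with Gl-1 and 20.4% with Gl-2. The Gl-2 mean was lower than the HCD mean by 0.34 (SE 0.08, adjusted p = 0.0107 from limma over 22080 genes), which is under the difference of 0.7 that a call also needed. Over 15 alternative settings that adjusted p ran from 0.00519 to 0.185 and the difference from -0.39 to -0.28. The Gl-1 difference was -0.30 (adjusted p = 0.0893) and that of HCD against Control 0.17 (unadjusted p = 0.0294, adjusted p = 1.00). The product of Srd5a3, polyprenol reductase, serves the synthesis of dolichol for protein glycosylation. Its 15 kidney values lay between 7.99 and 8.33, and its largest difference among the 4 main comparisons was -0.08 for HCD against Control (95% CI -0.25 to 0.09).

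Akr1c18 encodes 20-alpha-hydroxysteroid dehydrogenase, which inactivates progesterone, and its kidney values ran the other way. On Control they were 9.28, 9.37 and 9.23. On HCD they were 8.92, 8.60 and 9.01, and with simvastatin 8.66, 9.05 and 8.46. These 2 groups overlapped each other and lay below Control. With Gl-1 the values were 9.67, 9.91 and 9.74. With Gl-2 they were 10.00, 9.63 and 9.77. Both extract groups lay above every Control array.

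The HCD mean of Akr1c18 in kidney was lower than the Control mean by 0.45 (SE 0.17). With Gl-1 the mean exceeded that on HCD by 0.94 and with Gl-2 by 0.96, each with an SE of 0.17, which are 1.91-fold and 1.95-fold differences. HCD+Sim differed from HCD by -0.12, less than 1 SE. The extract groups differed from each other by 0.03, and they exceeded Control by 0.48 for Gl-1 and by 0.51 for Gl-2. Unlike Srd5a2, Akr1c18 thus lay beyond its Control level in both extract groups, with no overlap of arrays. Both differences from Control are under the 0.7 that a call needed. Of all genes 11.9% had no overlap between Gl-1 and Control, and 18.3% between Gl-2 and Control.

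**Figure D2:**
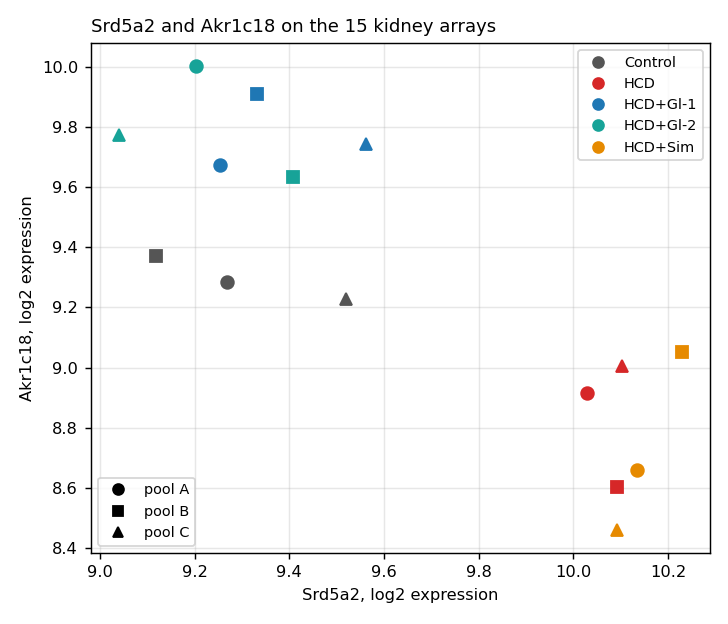
Log2 expression of Srd5a2 (horizontal axis) against that of Akr1c18 (vertical axis) on the 15 kidney arrays, coloured by diet and with a symbol for each pool. The 6 arrays of HCD and HCD+Sim lie at the lower right, with Srd5a2 at 10.03 or above and Akr1c18 at 9.05 or below, and the other 9 lie at the upper left.

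Akr1c14, a 3-alpha-hydroxysteroid dehydrogenase, and Akr1c21, which acts on the 3-alpha and 17-alpha positions, lie near Akr1c18 on chromosome 13. In RefSeq's annotation of GRCm38.p6, Akr1c14 spans 4048991 to 4090560, Akr1c18 spans 4132615 to 4150646 and Akr1c21 spans 4574075 to 4586543. Srd5a2 spans 74014891 to 74047860 on chromosome 17. The 15 kidney values of Akr1c14 lay between 10.48 and 11.03, and all neighbours in the order of its diet means overlapped. Its largest difference among the 4 main comparisons was 0.14 for HCD against Control (95% CI -0.07 to 0.35), and HCD+Sim differed from Control by 0.23 (95% CI 0.02 to 0.43) without a call. Akr1c21 lay between 10.61 and 10.83 on all 15 arrays. Its difference was -0.03 with Gl-1 (95% CI -0.22 to 0.16) and -0.00 with Gl-2 (95% CI -0.19 to 0.19), so that shifts of the size seen for Akr1c18 lie outside both intervals.

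Hsd11b1 encodes the enzyme that regenerates active corticosterone from its inactive ketone. Its kidney values were 9.28, 9.21 and 9.43 on Control, 9.80, 9.90 and 9.96 on HCD, and 9.99, 9.99 and 9.82 with simvastatin. With Gl-1 they were 9.36, 9.23 and 9.61, and with Gl-2 9.63, 9.61 and 9.53. As for Srd5a2, the arrays of HCD and HCD+Sim lay above every array of the other 3 diets, and the only gap between neighbouring groups lay between HCD and Gl-2. Of all genes 13.2% did not overlap in HCD against Control, and against HCD 13.8% with Gl-1 and 20.4% with Gl-2. The difference of HCD against Control was 0.58 (SE 0.14, adjusted p = 0.0800) and was not called. With Gl-1 the difference from HCD was -0.49 (adjusted p = 0.268) and with Gl-2 -0.30 (adjusted p = 0.528). Over the 15 alternatives the adjusted p of HCD against Control ran from 0.0154, in the fit on the tissue's own arrays, to 0.452, and the difference from 0.53 to 0.64.

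Hsd11b2, the inactivating partner, had kidney values of 10.79, 10.85 and 10.57 on Control and 10.56, 10.72 and 10.60 on HCD. With Gl-2 they were 10.48, 10.36 and 10.04, all below HCD, and the difference was -0.33 (SE 0.13, adjusted p = 0.336). Of all genes 20.4% did not overlap in that comparison. Gl-1 differed from HCD by 0.01 and HCD+Sim by -0.10. Hsd17b11, a dehydrogenase of lipid droplets that oxidises androstanediol, had values of 10.43, 10.32 and 10.59 on Control and 10.70, 10.71 and 10.81 on HCD. The HCD arrays lay above all Control arrays, by 0.29 on average (SE 0.10, adjusted p = 0.592). Of all genes 13.2% did not overlap there. The Hsd17b11 values with simvastatin, at 10.68, 10.82 and 10.51, overlapped both groups.

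By the calling rule of the study, an absolute log2 difference over 0.7 with an adjusted p of at most 0.05, the calls among the 9 genes in kidney were those of Srd5a2 and Akr1c18. In HCD against Control 1 of 9 genes was called, Srd5a2, where 0.0408% of all genes were. In HCD+Gl-1 against HCD 1 of 9 was called, Akr1c18, against 0.131% of all genes, and Srd5a2 at -0.69 lay just under the difference required. In HCD+Gl-2 against HCD both were called, against 0.335%. In HCD+Sim against HCD none of the 9 was called, against 0.140%. Since these values chose the genes, the counts are given as a description. Of the other 7 genes none was called by limma in any of the 4 comparisons. At an unadjusted p under 0.05 they numbered 3, 2, 3 and 0 in that order, where 4.47%, 4.00%, 8.97% and 6.19% of all genes passed.

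**Figure D3:**
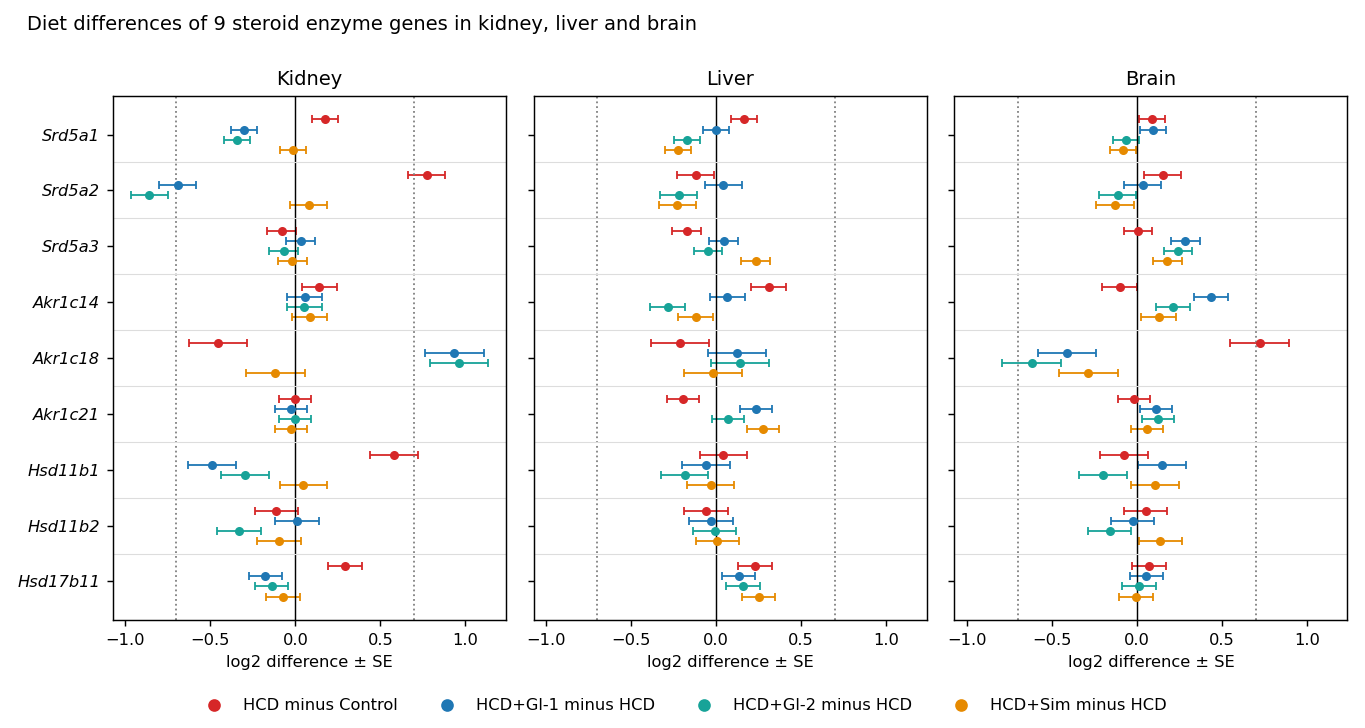
Log2 difference between group means (horizontal axis, bars of 1 SE from limma) for the 9 genes in kidney, liver and brain, with colours for the 4 comparisons and dotted lines at the difference of 0.7 that a call needed. Differences beyond the lines appear for Srd5a2 (0.77 and -0.86) and Akr1c18 (0.94 and 0.96) in kidney and for Akr1c18 in brain (0.72, adjusted p = 0.118).

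In liver none of the 9 genes was called by the same rule. Of all genes 0.245% were called in HCD against Control and 0.163% in HCD+Gl-1 against HCD. The shares were 0.303% in HCD+Gl-2 against HCD and 0.258% in HCD+Sim against HCD. At such shares a call among 9 genes is unlikely, so its absence says little about them. Srd5a2 and Akr1c18 had moreover been chosen for changes in kidney, not in liver. At an unadjusted p under 0.05 in limma, 5, 1, 2 and 5 of the 9 passed, where 10.3%, 16.6%, 12.6% and 11.7% of all genes did. Srd5a2 in liver ranged from 7.34 to 8.01 over 15 arrays, and its difference of HCD against Control was -0.12 (95% CI -0.34 to 0.10, adjusted p = 0.802). Akr1c18 ranged from 4.88 to 5.34, and with Gl-2 it differed from HCD by 0.14 (95% CI -0.20 to 0.49). The largest of the 36 liver differences was that of Akr1c14 in HCD against Control, 0.31 (SE 0.10, adjusted p = 0.157), with 10.85, 10.77 and 10.92 on Control and 11.11, 11.21 and 11.16 on HCD.

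Whether a diet moved a gene differently in kidney and liver was tested for the 7 genes not chosen by their kidney values. None of the 7 was called by limma in any of the 4 differences of responses, where 0.149% of all genes were called for HCD against Control, 0.222% for Gl-1, 0.326% for Gl-2 and 0.254% for simvastatin against HCD. Unadjusted p-values under 0.05 numbered 1, 3, 2 and 3, where 7.13%, 10.4%, 8.89% and 9.59% of all genes passed. For Hsd11b1 the response to HCD was larger in kidney than in liver by 0.54 (SE 0.20, adjusted p = 0.425).

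In brain none of the 9 genes was called either, where 0.0317% of all genes were called in HCD against Control, 0.00906% in HCD+Gl-1 against HCD, 0.0226% in HCD+Gl-2 against HCD and 0% in HCD+Sim against HCD. At an unadjusted p under 0.05 in limma, 1, 3, 3 and 1 of the 9 passed, where 6.45%, 5.55%, 6.65% and 5.53% of all genes did. Akr1c18 had the largest difference in each comparison but HCD+Gl-1 against HCD. There Akr1c14 differed by 0.44 and Akr1c18 by -0.41. The brain values of Akr1c18 were 5.57, 4.92 and 6.17 on Control and 6.48, 6.14 and 6.20 on HCD, a difference of 0.72 (SE 0.17, adjusted p = 0.118). The Control values overlapped HCD through pool C, the array that stood apart. Without that array the difference was 1.03 (adjusted p = 6.88e-05), and with pools A and B alone it was 1.07 (adjusted p = 0.00132). Without pool B of Control, the lowest of the Control values, the difference was 0.40. Over the 15 alternatives the adjusted p ran from 6.88e-05 to 0.929. Leaving out pool C of Control also moved the number of genes called in this comparison from 7 to 139.

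Relative to HCD, Akr1c18 in brain differed by -0.41 with Gl-1, by -0.62 with Gl-2 (adjusted p = 0.310) and by -0.28 with simvastatin, signs opposite to those in kidney for both extracts. The difference between the tissues was not tested for this gene, whose kidney values chose it. Srd5a3 had 7.89, 7.81 and 7.88 with Gl-1 and 7.85, 7.85 and 7.75 with Gl-2 in brain, all above the HCD values of 7.57, 7.53 and 7.62. The differences were 0.28 and 0.24, with adjusted p-values of 0.447 and 0.523. Of all genes 13.7% did not overlap with Gl-1 and 14.6% with Gl-2.

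**Figure D4:**
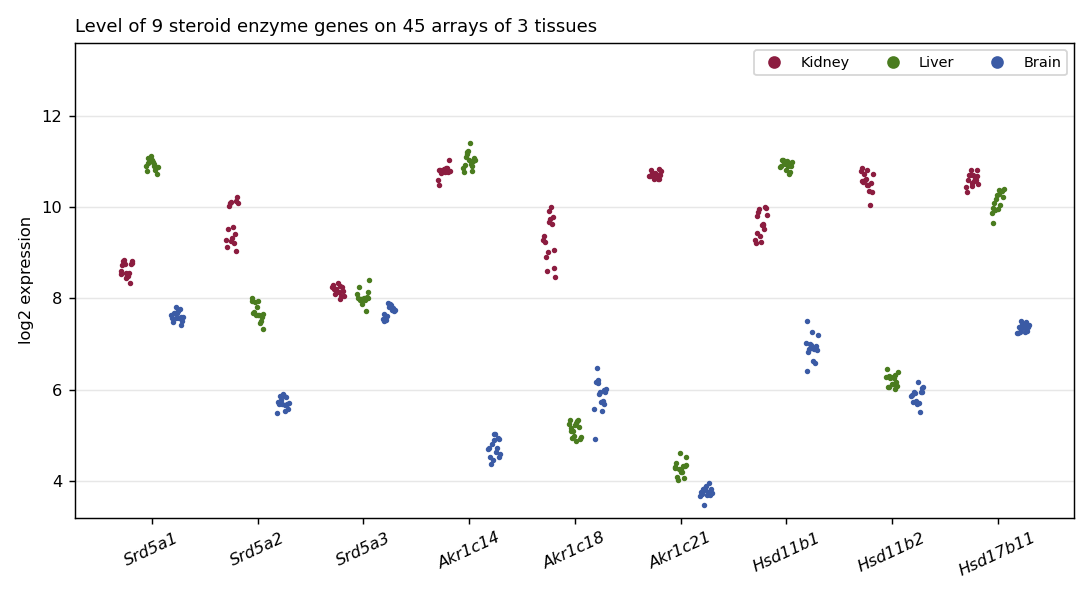
Log2 expression (vertical axis) of the 9 genes on all 45 arrays, 15 points for each tissue, coloured by tissue. For Akr1c21 and Hsd11b2 all kidney points (10.61 to 10.83 and 10.04 to 10.85) lie above all liver and brain points, and for Srd5a1 and Hsd11b1 the liver points lie highest.

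Levels of most of the 9 genes differed between tissues. On the Control diet 6 of the 9 genes were called between kidney and liver, where 16.8% of all genes were, and 8 of 9 between kidney and brain, where 30.0% were. Of the 7 genes not chosen by their kidney values, 4 were called against liver and 6 against brain. Among the 6 genes called against liver, 4 lay higher in kidney, by 6.40 for Akr1c21 (SE 0.09), 4.47 for Hsd11b2 (SE 0.13), 4.05 for Akr1c18 (SE 0.17) and 1.43 for Srd5a2 (SE 0.11). Akr1c18 and Srd5a2 are the genes chosen by their kidney values. Srd5a1 was lower in kidney than in liver by 2.26 (SE 0.08) and Hsd11b1 by 1.64 (SE 0.14). Akr1c14 differed by -0.22 (adjusted p = 0.0810), Srd5a3 by 0.13 (adjusted p = 0.206), and Hsd17b11 by 0.61 (adjusted p = 1.66e-06), under the difference required.

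Compared with brain, all 9 genes lay higher in kidney on the Control diet. The differences were 7.01 for Akr1c21, 5.98 for Akr1c14, 4.91 for Hsd11b2, 3.74 for Akr1c18, 3.67 for Srd5a2, 3.16 for Hsd17b11, 2.32 for Hsd11b1 and 1.07 for Srd5a1. Srd5a3, at 0.68 (SE 0.08, adjusted p = 3.84e-09), lay just under the difference required.

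The rest of the steroid pathway gave no call in kidney. Of 38 genes in 4 lists 37 were measured, namely 8 other aldo-keto reductases, 12 of 13 other 17-beta-hydroxysteroid dehydrogenases, 7 3-beta-hydroxysteroid dehydrogenases and 10 steroid synthesis genes such as Cyp11a1 and Cyp19a1. None of the 37 was called by limma in any of the 4 diet comparisons, where 0.0408%, 0.131%, 0.335% and 0.140% of all genes were. At an unadjusted p under 0.05 they numbered 1, 2, 2 and 0, where 4.47%, 4.00%, 8.97% and 6.19% of all genes passed. Their differences lay between -0.21 and 0.33. The medians of the lists lay between -0.02 and 0.06, where the median over all genes was -0.01 in HCD against Control, 0.01 with each extract and 0.00 with simvastatin. Of 6 genes for steroid receptors and H6pd, which supplies the cofactor of the Hsd11b1 enzyme, none was called, and their list medians lay between -0.03 and 0.02. At an unadjusted p under 0.05 they numbered 1, 1, 0 and 0.

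Genes known to respond to androgens in mouse kidney gave no call, and their signs were uniform. All 6 of them, Kap, Odc1, Gusb, Acsm3, Cyp4b1 and Slco1a1, had positive differences in HCD against Control, with a median of 0.25. All 6 were negative with Gl-1 (median -0.13), with Gl-2 (median -0.15) and with simvastatin (median -0.07). The same HCD arrays enter every one of these comparisons, so their signs are not independent of each other. Over all genes the median was -0.01 in HCD against Control, 0.01 with each extract and 0.00 with simvastatin. None of the 6 was called, where 0.0408%, 0.131%, 0.335% and 0.140% of all genes were. At an unadjusted p under 0.05 in limma they numbered 3, 3, 2 and 0, where 4.47%, 4.00%, 8.97% and 6.19% of all genes passed. For Odc1, ornithine decarboxylase, the HCD mean of 12.07 exceeded the Control mean of 11.60 by 0.47 (adjusted p = 0.0245) and the Gl-2 mean by 0.41 (adjusted p = 0.0221). Slco1a1, an organic anion transporter, differed by 0.47 in HCD against Control (adjusted p = 0.0586) and by -0.41 with Gl-2 (adjusted p = 0.0483).

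Corticosteroid-responsive genes gave no call in kidney either, where 0.0408%, 0.131%, 0.335% and 0.140% of all genes were called. With Gl-2 all 7 had positive differences from HCD, with a median of 0.42, where the median over all genes was 0.01. At an unadjusted p under 0.05 in limma 6 of the 7 passed, where 8.97% of all genes did. Zbtb16 differed by 0.72, over the difference required, but its adjusted p of 0.0569 was over the limit. Per1 differed by 0.68 (adjusted p = 0.00913), under the difference required. In the other comparisons none of the 7 had an unadjusted p under 0.05, and the medians were -0.11 for HCD against Control, 0.04 with Gl-1 and 0.01 with simvastatin.

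Immediate early genes respond within minutes to stimulation or handling of a tissue. All 12 rose in kidney in HCD+Gl-2 against HCD, by 0.91 for Junb to 3.97 for Egr1 with a median of 1.62. The mean of the list was 8.63 to 9.06 on the 3 Gl-2 arrays and 6.85 to 7.27 on the other 12 kidney arrays. With Gl-1 none of the 12 was called, where 0.131% of all genes were. None had an unadjusted p under 0.05 in limma there, where 4.00% of all genes did. The part of the immediate early shifts in the Gl-2 differences of the 9 genes and of the corticosteroid-responsive genes was not tested.

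Markers of kidney segments and of neighbouring tissues gave no called difference between diets. None of the 22 markers of proximal tubule, loop and distal tubule, collecting duct and glomerulus was called in the 4 kidney comparisons. Unadjusted p-values under 0.05 in limma numbered 1, 2, 4 and 2, where 4.47%, 4.00%, 8.97% and 6.19% of all genes passed. The list medians lay between -0.08 and 0.15. The summed level of the 6 proximal tubule markers lay between 14.94 and 15.02 on HCD, 14.96 and 15.03 on Control, 14.98 and 15.03 with Gl-1, 14.95 and 14.98 with Gl-2, and 15.00 and 15.09 with simvastatin. For the 6 loop and distal tubule markers the sum lay between 14.01 and 14.07 on HCD and 14.02 and 14.11 with simvastatin. It lay between 14.11 and 14.13 on Control, 14.14 and 14.18 with Gl-1, and 14.17 and 14.21 with Gl-2. The 6 collecting duct markers summed to 10.83 to 10.97 on HCD and 11.03 to 11.19 with Gl-2. The part of such shifts in the differences of the 9 genes was not tested. Bulk tissue cannot tell fewer cells of a type from less RNA per cell.

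Adrenal tissue, which lies beside the kidney and expresses Akr1c18, was looked for with 9 markers. Their summed level lay between 8.95 and 9.03 on HCD, 8.99 and 9.07 on Control, 8.98 and 9.07 with Gl-1, 9.02 and 9.16 with Gl-2, and 8.93 and 9.12 with simvastatin. None was called, 0, 1, 1 and 0 had an unadjusted p under 0.05, and none was called higher in kidney than in liver. The defining genes Cyp11b1 and Cyp11b2 lay at 5.28 and 6.34 on average in kidney and at 5.36 and 6.64 in liver. Akr1b7, alone in the list, averaged higher in kidney (6.05) than in liver (5.41), and it lay at 4.98 in brain. The largest difference between kidney diets in the list was 0.30, in HCD+Gl-2 against HCD. Of 6 adipose markers none was called or had an unadjusted p under 0.05, with list medians between -0.08 and 0.15. The 5 liver and 5 brain markers gave no call in kidney either. At an unadjusted p under 0.05 the liver markers numbered 1 in each comparison and the brain markers 1, 1, 1 and 0. Of all genes 4.47%, 4.00%, 8.97% and 6.19% passed at that p in limma.

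The genes whose values were most like those of Srd5a2 over the 15 kidney arrays, by Pearson's r across arrays, were Cntnap5a (0.938), the alcohol dehydrogenase gene Adh1 (0.936), the lipase gene Lipo1 (0.935), Hrg for histidine-rich glycoprotein (0.934) and Dync2li1 (0.922). For Akr1c18 they were Cpe for carboxypeptidase E (0.892), the malic enzyme gene Me3 (0.887), the aminotransferase gene Bcat1 (0.875), Fam92b (0.867) and Mrps6 (0.862). The arrays fall into 5 diet groups, so r follows the differences between diets, and the top 5 of 22080 genes were picked by it.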

How the data were processed

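RNA of liver, kidney and brain was hybridised to Affymetrix Mouse Gene ST v1.0 arrays, 45 in all with 3 per tissue and diet. The authors corrected the background with RMA, applied quantile normalization with oligo and ComBat for batches that are not named in the sources used here, and represented a gene by its most variable probe set, as judged by interquartile range. The deposited values are on the log2 scale, and the genome build of the annotation is not given in the sources used here. Precision is set by the number of arrays. The table holds 22080 genes. Dates stand in place of 13 gene names, and these rows were tested but are not named.

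Groups were taken from the labels. With limma 3.58.1 in R 4.3.3, the 45 arrays entered 1 linear model holding a mean for each of the 15 groups, in which the moderated variance had 30 residual and 7.34 prior degrees of freedom, with Benjamini-Hochberg adjustment over all genes within each comparison. Calls used the thresholds of the study, an adjusted p no higher than 0.05 with an absolute log2 difference above 0.7. An exact two-sided permutation test of 3 arrays against 3 cannot give a p under 0.1. The fit was tested on simulated data. The genes, the 16 gene lists and the tests were chosen with earlier results of these data known. Named genes are the 9 members, list genes that were called or were the extremes of a list, tissue markers, and the 5 genes most like Srd5a2 and Akr1c18. Summed levels are the log2 of the summed unlogged values of a list. Promoters came from RefSeq's table for GRCm38.p6. Slco1a1 and Per1 are named beyond this rule, after their values were seen. The values of 1 list gene are not reported here. Plots used Python 3.11.15 with matplotlib 3.10.9.

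Each comparison was repeated with fewer arrays in the model (the tissues concerned, the groups concerned, no pool C, or 1 array less), with the letters of the pools as a replicate block, without dim genes, after renormalizing every tissue by quantiles, with trended or robust moderation, and by adjusted p alone.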

Additional observations from a re-analysis of the deposited data

Results flagged for a closer look

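Srd5a2 with simvastatin lay on opposite sides of the HCD mean in kidney and liver. Each of the 3 kidney HCD+Sim arrays (10.14, 10.23 and 10.09) lay above the mean of the kidney HCD arrays, 10.07, and each of the 3 liver HCD+Sim arrays (7.58, 7.66 and 7.34) lay below the mean of the liver HCD arrays, 7.75. The kidney difference exceeded the liver difference by 0.31. In both tissues the HCD+Sim and HCD arrays overlapped, and the difference between the tissues was not tested, since Srd5a2 had been chosen by its kidney values.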

How the results depend on the processing

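The number of the 9 genes called changed in 3 comparisons and stayed within 1.5 times its value in the other 11, and no call reversed. In the main fit the calls between kidney diets were those of Srd5a2 and Akr1c18, whose kidney values chose them. Their counts over the settings are therefore a description and no independent support. In kidney HCD against Control, 1 gene was called, and leaving out each array in turn gave 0 to 1, with 0 without pool B of Control, where Srd5a2 differed by 0.68. In kidney HCD+Gl-1 against HCD, 1 gene was called, against 2 with pools A and B only and 2 with no threshold on the difference, where Srd5a2 passed as well. Leaving out each array gave 0 to 2 there, with 2 without pool A of HCD, 2 without pool C of Gl-1 and 0 without pool B of HCD, where Akr1c18 was no longer called. In brain HCD against Control, no gene was called, against 1, Akr1c18, with pools A and B only, and 0 to 1 when each array was left out, with 1 without pool C of Control. Pools A and B only leaves 2 arrays a group. Of single differences, Srd5a1 in kidney HCD+Gl-2 against HCD (-0.34) and Hsd17b11 between kidney and liver (0.61) passed with no threshold on the difference, and Srd5a3 between kidney and brain also in 3 other settings, at 0.70 to 0.75.

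With the pool letter as a replicate block, 1, 1, 2 and 0 genes were called in the 4 kidney comparisons, as without it, and no other call of the 9 genes changed. Arrays of the same letter did not deviate together in kidney (mean r of -0.01, over 0.1 in 3 of 30 pairs) or brain (-0.01, 7 of 30), and in liver they did in part (0.08, 12 of 30), so the letters were not taken as pairs. The number of arrays limits the precision, with SEs of 0.08 to 0.17 for the diet differences of the 9 genes.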

Other observations

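By the methods pool C mixes the RNA of pools A and B. The value of pool C lay between those of the other 2 pools for 26.6% to 35.5% of the 22080 genes in the 5 kidney groups.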
